A study of Mus musculus with 6 samples.

Results

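Fatty acid oxidation genes and targets of the peroxisome proliferator-activated receptors (PPARs) were examined in mouse T helper 1 (Th1) cultures grown with or without LPC. The 41 members were matched by gene symbol and cover the carnitine shuttle, mitochondrial and peroxisomal beta-oxidation, the electron transfer flavoprotein, acyl-CoA thioesterases, the PPARs and PPAR targets. Of these, 40 were found among 18046 listed genes, and Fabp4 was not analysed here. The LPC group (n = 3) received 20 µM LPC and the vehicle group (n = 3) received vehicle. All 6 libraries came from naive CD4+ T cells of C57BL/6 mouse spleen, labelled with an age of 3 weeks, which were stimulated for 3 days through CD3 and CD28 in Th1-polarizing culture. The labels neither spell out LPC nor name the vehicle. Nor do they state if a group's libraries stem from different animals or cultures. The p-values therefore describe the spread among these 6 libraries alone, and that spread may be technical.

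As background, long-chain fatty acids enter mitochondria as carnitine esters, and CPT1 makes those esters at the outer membrane as the controlled step. Inside, acyl-CoA dehydrogenases, hydratases, hydroxyacyl-CoA dehydrogenases and thiolases shorten the chain cycle by cycle, and the electron transfer flavoprotein passes electrons on to the respiratory chain. PPARs are nuclear receptors that bind fatty acids, pair with RXR and raise many genes of this pathway, and in T cells the pathway is best known from memory and regulatory cells, while freshly activated effector cells rely more on glycolysis.

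Expression is given as FPKM, fragments per kilobase of exon model scaled to the mapped reads of the library. The files hold no read totals, and the spacing of low values came nearest to whole fragments at 18.75 to 19.25 M fragments per library, an estimate rather than a count. LPC replicate 3 stood apart, with the highest FPKM sum (641026, against 556561 to 588274 in the other 5 libraries) and with 17.9% of its genes listed at 0, a smaller share than in the others (19.4% to 20.2%). Of the LPC libraries, replicate 2 lay nearest to vehicle. Its log2 levels correlated at 0.9924, 0.9921 and 0.9906 with vehicle replicates 1, 2 and 3. With LPC replicates 1 and 3 the correlations were 0.9941 and 0.9909. Across 10034 genes the LPC change had a correlation of 0.25 with the GC share and of -0.29 with the log2 length of the transcript, a description over genes that are not independent replicates. The T cell markers were present, and all 6 that were measured passed the filter, with summed levels of 950 to 1023 FPKM with LPC and 984 to 1016 FPKM with vehicle. Among them Cd4 stood at 177, 170 and 144 FPKM with LPC and at 185, 205 and 199 FPKM with vehicle, lower in every LPC library but not past an adjusted p of 0.05 (log2 change -0.27, limma adjusted p = 0.0875). Of the CD8 markers, Cd8a stood at 0.24 to 0.30 FPKM with LPC and 0.18 to 0.33 FPKM with vehicle, and Cd8b1 at 10.6 to 12.6 FPKM with LPC and 13.4 to 14.2 FPKM with vehicle. Sums were also lower with LPC for the dendritic cell list (1.30 to 1.64 FPKM, against 2.82 to 2.92 FPKM with vehicle, mostly Zbtb46) and the NK cell list (5.10 to 5.33 FPKM, against 6.31 to 8.78 FPKM with vehicle, mostly Eomes, with Ncr1 at 0) and the B cell list (0.52 to 0.89 FPKM, against 1.01 to 1.05 FPKM with vehicle), and the part of these in the results was not tested. Zbtb46 (log2 change -0.68, limma adjusted p = 0.0014) and Eomes (-0.49, adjusted p = 0.0146) were both lower with LPC past an adjusted p of 0.05. Myeloid, endothelial and fat cells also use several of the members. The 7 macrophage and monocyte markers summed to 3.34 to 4.90 FPKM with LPC and 3.54 to 5.57 FPKM with vehicle, nearly all of it Cd68, with Csf1r at 0.01 FPKM or less in every library. The 5 endothelial markers summed to 5.63 to 6.78 FPKM with LPC and 4.86 to 5.79 FPKM with vehicle, nearly all of it Pecam1, with Cdh5 at 0.01 FPKM or less. The 3 adipocyte markers summed to at most 0.03 FPKM with LPC and 0.04 FPKM with vehicle. In bulk RNA, fewer cells of a type and less RNA per cell cannot be told apart.

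Stretches before the annotated starts of 3 loci are shown because their genes carry the results that follow: Cpt1a and Etfb rose with LPC, and Hadha and Hadhb, the paired subunits of 1 enzyme complex, start back to back. The sequences are RefSeq's, build GRCm38.p6, and leave out bases that GENCODE places in exons. Capitals mark TGACCT, the reverse complement of AGGTCA, the core site of many nuclear receptors. The Cpt1a stretch is chr19:3323051-3323284 (plus strand), which lies between annotated exons of a longer transcript. The Etfb stretch is chr7:43443822-43444071 (plus strand). The stretch between Hadha and Hadhb is chr5:30155163-30155247 (plus strand, toward Hadhb).
Cpt1a: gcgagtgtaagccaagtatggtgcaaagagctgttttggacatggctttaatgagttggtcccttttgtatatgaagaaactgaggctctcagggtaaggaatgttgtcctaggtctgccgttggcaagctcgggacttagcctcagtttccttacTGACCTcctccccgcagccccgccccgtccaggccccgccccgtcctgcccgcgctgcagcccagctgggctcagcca
Etfb: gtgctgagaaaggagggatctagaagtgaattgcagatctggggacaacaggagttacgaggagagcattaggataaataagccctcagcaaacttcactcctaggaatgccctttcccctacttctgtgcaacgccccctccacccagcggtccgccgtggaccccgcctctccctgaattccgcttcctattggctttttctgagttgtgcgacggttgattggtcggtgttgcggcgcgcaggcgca
Hadha-Hadhb: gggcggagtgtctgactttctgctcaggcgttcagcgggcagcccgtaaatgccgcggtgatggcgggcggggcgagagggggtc
Both strands of the 250 bases before each start were searched, in 35 entries of 33 members. Members without an entry were not searched, among them Crat, Fabp5 and Angptl4. The core site AGGTCA was found in 8 of these 35 entries, those of Acadm, Acadvl, Cd36, Cpt1a, Cpt1c, Echs1 and Pparg, and in 14.0% of 32851 promoter entries of all genes. The full PPAR and RXR element (AGGTCA repeated in the same direction with 1 base between) was in none of the 35 and in 0.0335% of all entries. TCAAGGTCA, the site of estrogen-related receptors, which contains AGGTCA, was in none of the 35 and in 0.387% of all entries. These are matches of letters in a short window and say nothing of binding.

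Most of the pathway was well expressed, as the plot of levels shows. In vehicle libraries the 34 members that entered the test had a median of 18.4 FPKM, against 13.9 FPKM for all 10138 tested genes, and 20 of the 34 lay above the median gene. The test was limma on log2(FPKM + 1) for genes with 1 FPKM or more in at least 3 libraries, with Benjamini-Hochberg adjustment over all tested genes and a call at an adjusted p under 0.05. Log2 changes are LPC minus vehicle on that scale and understate the change of low genes. The highest levels among the members were those of Etfb, Acot7, Acadl and Ech1, each between 70.7 and 108.3 FPKM in every library. The 6 members under the filter were Cpt1c, Acot1, Ppara, Pparg, Pdk4 and Cd36.

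**Figure D1:**
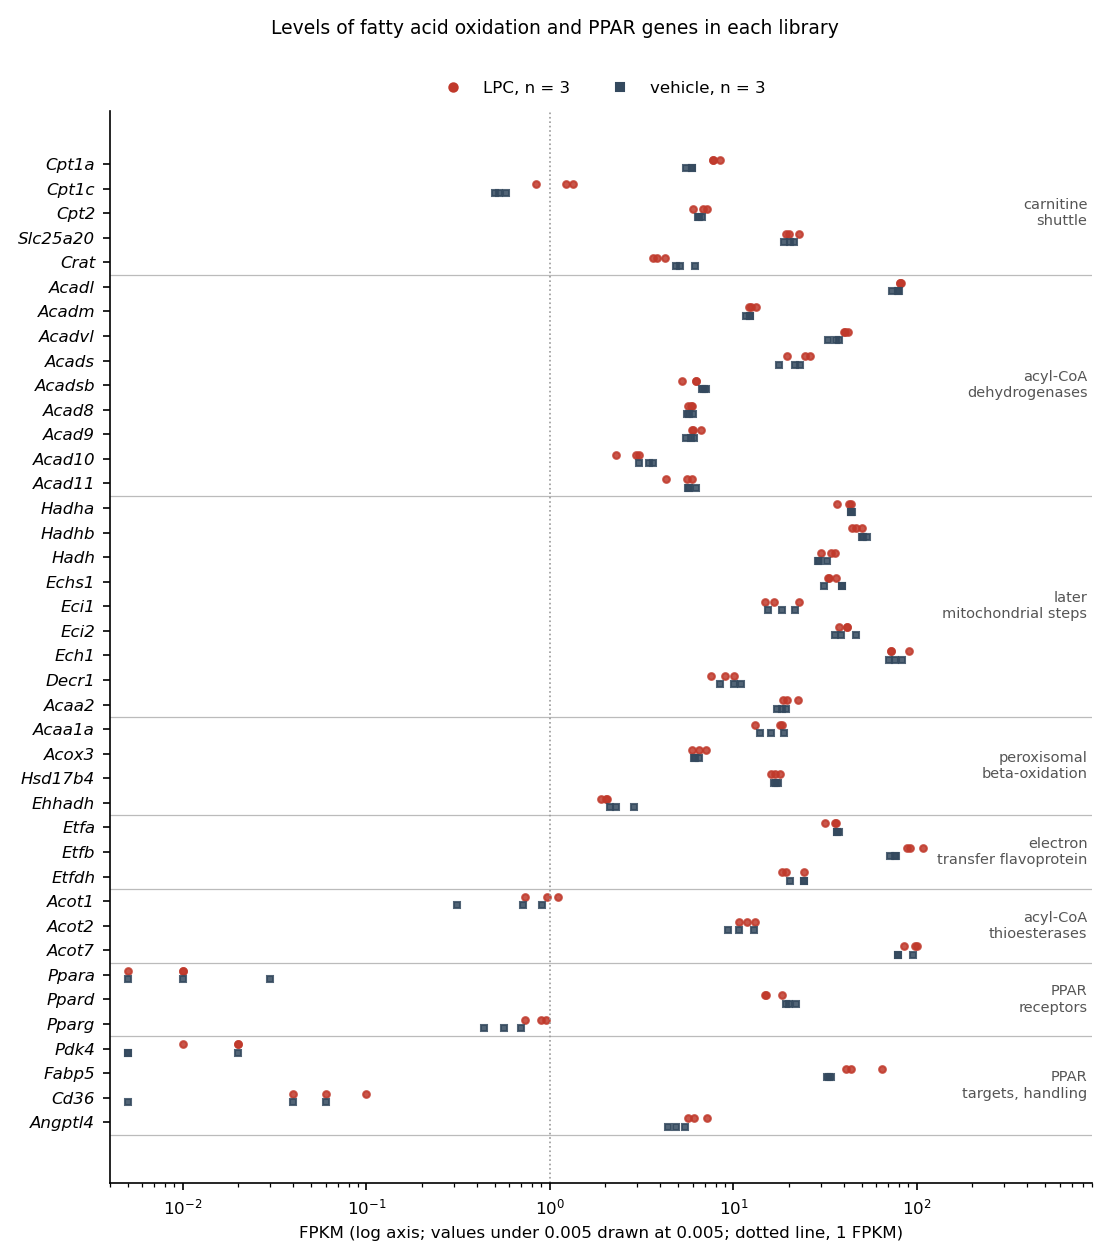
FPKM (log axis) of the 40 measured members in each library, ordered by role, with LPC libraries as circles and vehicle libraries as squares (n = 3 each). Most genes lie between 1 and 100 FPKM, while Ppara, Pdk4 and Cd36 lie at 0.10 FPKM or less in every library.

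With LPC, Cpt1a, Fabp5 and Etfb rose, Crat fell, and 30 of the 34 tested members did not pass. The share called was 11.8%, and across all tested genes it was 13.7% (590 genes or 5.82% higher and 802 genes or 7.91% lower, and 646 higher and 571 lower after median centring of the libraries), so the members were called about as often as genes in general. For 11 members (32.4%, with a background of 34.5%) the ranges of the groups stood apart. Of the 34 tested members, LPC lay above in 6 and below in 5. Of all 10138 tested genes, LPC lay above in 13.7% and below in 20.7%. The median log2 change was 0.02 for the members and -0.04 for all tested genes. Its sign depended on the scaling, with -0.03 for the members and -0.09 for all genes at equal library sums, and 0.07 for the members and 0.0055 for all genes after median centring. By the labels' rule, an adjusted p under 0.05 and a change over 2-fold, 0 of the 34 tested members and 0.197% of tested genes were called. For 28 of the 34 the 95% interval of the log2 change lay within 0.5 of 0.

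**Figure D2:**
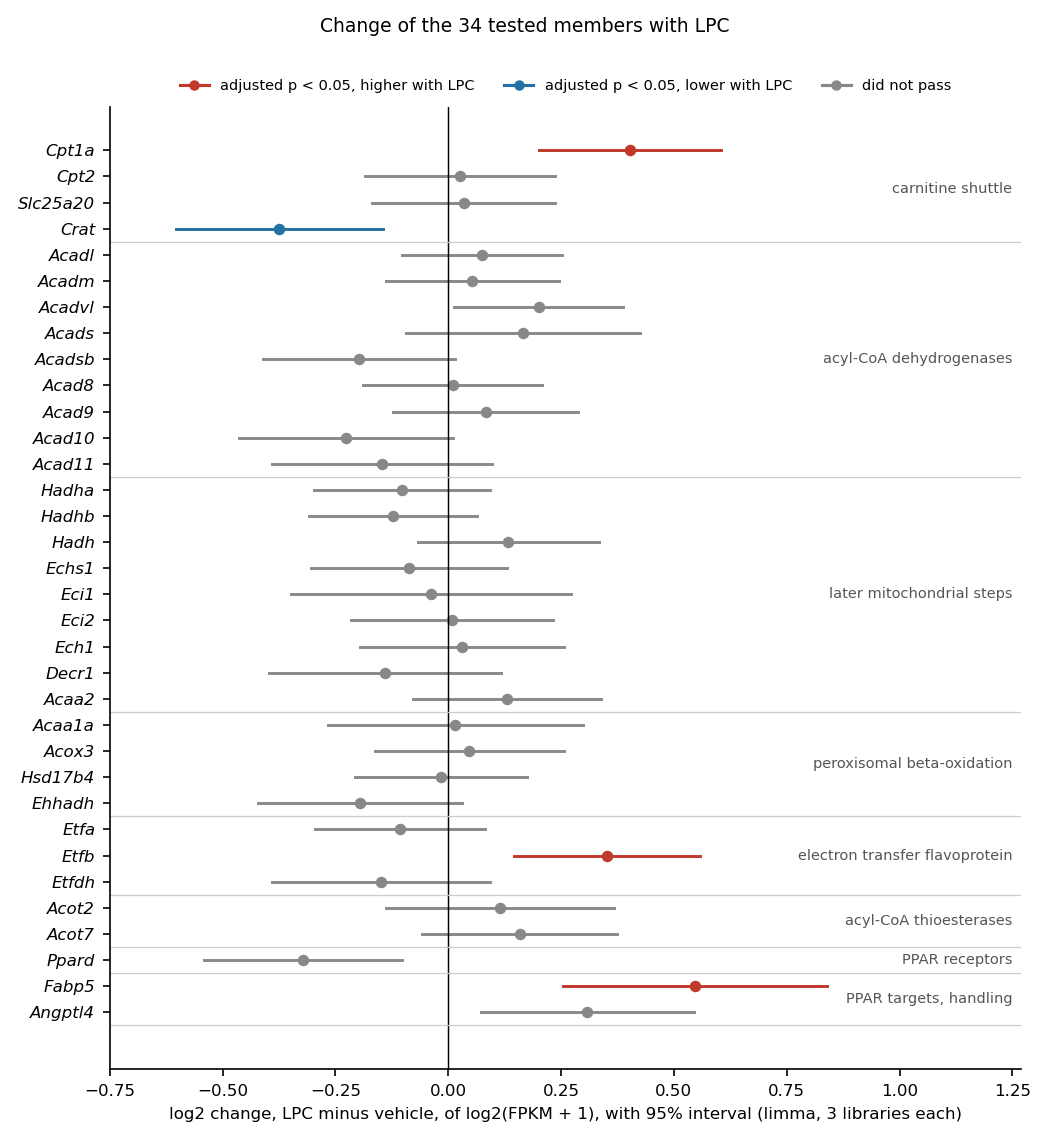
Log2 change (LPC minus vehicle, log2(FPKM + 1) scale) of the 34 tested members with 95% intervals from limma, n = 3 libraries each, ordered by role. Cpt1a, Etfb and Fabp5 lie above 0 and Crat below 0 with an adjusted p under 0.05, while the 18 dehydrogenases and later mitochondrial enzymes lie between -0.23 and 0.20.

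In the carnitine shuttle 1 of 4 tested genes rose, 1 fell and 2 did not pass. Cpt1a, the liver-type isoform of the entry enzyme (chromosome 19, 3322326 to 3385735, GRCm38), stood at 7.79, 8.50 and 7.70 FPKM in the LPC libraries and at 5.92, 5.95 and 5.54 FPKM in the vehicle libraries. Every LPC library lay above every vehicle library, and the spread within a group was small beside the gap. The means were 8.0 ± 0.438 FPKM with LPC and 5.80 ± 0.229 FPKM with vehicle (SD, n = 3 each), a 1.38-fold difference with a log2 change of 0.40 (SE 0.09, limma adjusted p = 0.0145). The call was lost on omission of any 1 vehicle library (adjusted p of 0.0609, 0.0504 and 0.0551 without replicates 1, 2 and 3) and held without LPC replicate 3 (0.0128), with log2 changes of 0.36 to 0.43 over the 6 fits that left out a library. It was also lost when each library was rescaled to the same FPKM sum (adjusted p = 0.0934) or with no filter on low values (0.0549).

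Crat encodes carnitine acetyltransferase, which exchanges short acyl groups between CoA and carnitine (chromosome 2, 30400476 to 30416017). It stood at 4.25, 3.83 and 3.63 FPKM with LPC and at 5.10, 6.14 and 4.87 FPKM with vehicle, so the groups did not overlap. The means were 3.90 ± 0.316 FPKM with LPC and 5.37 ± 0.677 FPKM with vehicle (SD, n = 3 each), and the log2 change was -0.37 (SE 0.11, limma adjusted p = 0.0346). With 1 library left out the call held in 1 of 6 fits, that without vehicle replicate 3 (adjusted p = 0.0385). The adjusted p was 0.0885 and 0.190 without vehicle replicates 1 and 2, and 0.0579, 0.0517 and 0.0646 without LPC replicates 1, 2 and 3. It was also lost with quantile normalization (0.0612), median centring (0.0517), rescaling to equal sums (0.0566) and no filter (0.140), and Crat was left out by the filter at a mean of 5 FPKM. Cpt2, which turns carnitine esters back into acyl-CoA inside the mitochondrion, stood at 7.20, 6.85 and 6.03 FPKM with LPC and at 6.77, 6.40 and 6.47 FPKM with vehicle (log2 change 0.03, 95% interval -0.19 to 0.24). Slc25a20, the carnitine-acylcarnitine carrier of the inner membrane, stood at 19.4, 22.7 and 20.2 FPKM with LPC and at 21.4, 20.3 and 19.0 FPKM with vehicle (0.03, interval -0.17 to 0.24). The LPC and vehicle libraries of both genes were interleaved.

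The ratio of Cpt1a to Cpt2 within a library does not depend on how that library was scaled. It was 1.08, 1.24 and 1.28 with LPC and 0.874, 0.930 and 0.856 with vehicle, so the order of the pair turned round between the groups. This ratio was picked after its values were seen and is given without a test. Cpt1c, a form best known from the brain, was listed at 1.23, 0.84 and 1.33 FPKM with LPC and at 0.53, 0.50 and 0.58 FPKM with vehicle. With 1 FPKM or more in 2 libraries it stayed under the filter. At the estimated depth these levels amount to 52 to 81 fragments with LPC and 31 to 36 with vehicle, and in the fit without a filter the gene did not pass (log2 change 0.47, adjusted p = 0.0970).

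None of the 9 acyl-CoA dehydrogenases passed. Acadl, which acts on long chains and was the most abundant of them, stood at 80.7, 81.8 and 81.1 FPKM with LPC and at 79.7, 78.5 and 73.2 FPKM with vehicle. The LPC libraries lay above the vehicle libraries by a narrow margin, and the log2 change was 0.07 (95% interval -0.10 to 0.25, limma adjusted p = 0.576). Acadvl, the enzyme of very long chains, stood at 40.8, 40.2 and 42.0 FPKM with LPC and at 37.7, 32.8 and 36.4 FPKM with vehicle. Here too the groups did not overlap, with a log2 change of 0.20 and an interval of 0.01 to 0.39 (adjusted p = 0.143). Acadm, the enzyme of medium chains, stood at 12.2, 13.2 and 12.5 FPKM with LPC and at 11.7, 12.4 and 12.4 FPKM with vehicle (log2 change 0.05, interval -0.14 to 0.25), and its groups overlapped. Acads, the enzyme of short chains, had a log2 change of 0.16 (adjusted p = 0.376). The lowest changes in this group were those of Acad10 (-0.23, adjusted p = 0.186) and of Acadsb (-0.20, adjusted p = 0.195), a branched-chain enzyme of isoleucine breakdown. Acadsb stood at 6.27, 6.22 and 5.27 FPKM with LPC and at 6.74, 7.11 and 6.91 FPKM with vehicle, so its LPC libraries lay below every vehicle library. Acad11 (-0.15), the valine enzyme Acad8 (0.01) and Acad9 (0.08), which also serves complex I assembly, lay nearer to 0. Summed over the 9 genes, dehydrogenase levels were 182 to 187 FPKM with LPC and 170 to 178 FPKM with vehicle, which describes the same rows and is not a test.

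The steps after the first oxidation gave no calls among 9 tested genes, with log2 changes from -0.14 to 0.13. Hadha and Hadhb encode the alpha and beta subunits of the mitochondrial trifunctional protein, which runs the last 3 steps for long chains. Hadha stood at 42.4, 44.0 and 36.8 FPKM with LPC and at 44.4, 44.0 and 43.7 FPKM with vehicle (log2 change -0.10, 95% interval -0.30 to 0.09). Hadhb stood at 44.4, 50.3 and 46.7 FPKM with LPC and at 53.54, 49.98 and 50.58 FPKM with vehicle (-0.12, interval -0.31 to 0.06). Their RefSeq starts lie 272 bases apart on opposite strands, around the stretch printed above. The Hadha to Hadhb ratio was 0.955, 0.875 and 0.789 with LPC and 0.829, 0.881 and 0.864 with vehicle, and the LPC values lay on both sides of the vehicle values (exact permutation test, two-sided p = 0.90, smallest possible 0.10).

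Hadh, the dehydrogenase for shorter hydroxyacyl-CoA, stood at 30.1, 35.7 and 34.2 FPKM with LPC and at 29.4, 29.0 and 32.3 FPKM with vehicle (log2 change 0.13, adjusted p = 0.354). The LPC range began inside the vehicle range. Acaa2, a mitochondrial thiolase, had a log2 change of 0.13 and Echs1, the short-chain enoyl-CoA hydratase, of -0.09. The auxiliary enzymes that unsaturated fatty acids need did not pass either, with log2 changes of -0.04 for Eci1, 0.01 for Eci2, 0.03 for Ech1 and -0.14 for Decr1, and adjusted p-values of 0.452 to 0.970. Over the 18 dehydrogenases and later mitochondrial enzymes together, the 95% intervals ran at most from -0.46 to 0.42, so larger changes than these lay outside the interval of every such gene.

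Peroxisomal beta-oxidation, which shortens very long and branched chains, also gave no calls among 4 members. Hsd17b4, a bifunctional enzyme that hydrates and then oxidizes the chain, had means of 16.9 ± 0.926 FPKM with LPC and 17.1 ± 0.439 FPKM with vehicle (SD, n = 3 each). Acaa1a, the peroxisomal thiolase, had a log2 change of 0.02 and Acox3, an oxidase for branched chains, of 0.05. Ehhadh, the other bifunctional enzyme, stood at 1.89, 2.04 and 2.01 FPKM with LPC and at 2.12, 2.30 and 2.86 FPKM with vehicle. Its groups did not overlap, but the log2 change of -0.20 did not pass (limma adjusted p = 0.228).

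The electron transfer flavoprotein carries electrons from all the acyl-CoA dehydrogenases, and its 2 subunits lay on opposite sides of 0. Etfb, the beta subunit gene (chromosome 7, 43444072 to 43457800), stood at 91.5, 88.0 and 108.3 FPKM with LPC and at 76.9, 71.0 and 76.2 FPKM with vehicle. It was higher in all 3 LPC libraries, with a log2 change of 0.35 (SE 0.10, limma adjusted p = 0.0298). Etfa, the alpha subunit gene, stood at 31.5, 36.1 and 35.7 FPKM with LPC and at 37.8, 36.9 and 36.6 FPKM with vehicle, lower in all 3 LPC libraries but with a log2 change of -0.11 that did not pass (adjusted p = 0.432). The Etfa to Etfb ratio was 0.344, 0.410 and 0.329 with LPC and 0.492, 0.519 and 0.480 with vehicle. The 2 sets of ratios did not overlap (difference of mean log2 ratio -0.47, exact permutation test, two-sided p = 0.10, the smallest this design allows). Etfdh, the dehydrogenase that passes the electrons to ubiquinone, had a log2 change of -0.15 (adjusted p = 0.393).

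The rise of Etfb needs 2 limits beside it. After each library's trend with GC share and transcript length was removed, its log2 change was 0.16 (adjusted p = 0.121), and the call was also lost on omission of any vehicle library (0.0885, 0.129 and 0.0573 for replicates 1, 2 and 3), of LPC replicate 1 (0.0563) or of LPC replicate 3 (0.0554), with equal library sums (0.0722) and with no filter (0.130). By the longest annotated transcript of each gene, Etfb is the shortest of the measured members (893 bases). For any gene the transcript expressed may be a shorter one. Of the 50-base windows of Etfb, 67.3% also occur in Gm45233, another annotated gene. The division of fragments between these genes was not tested.

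**Figure D3:**
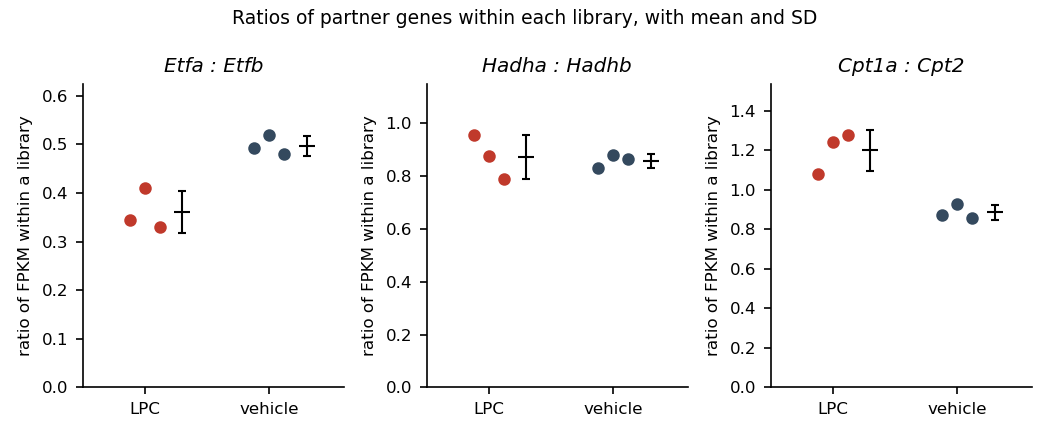
Ratios of FPKM within each library for Etfa to Etfb, Hadha to Hadhb and Cpt1a to Cpt2, with mean and SD of 3 LPC and 3 vehicle libraries. The Etfa to Etfb ratios are 0.329 to 0.410 with LPC and 0.480 to 0.519 with vehicle, while the Hadha to Hadhb ratios of the groups overlap.

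Acyl-CoA thioesterases cut acyl-CoA into free fatty acid and CoA. Acot7, a cytosolic form, stood at 99.6, 85.4 and 97.3 FPKM with LPC and at 78.7, 79.2 and 95.4 FPKM with vehicle, with a log2 change of 0.16 (limma adjusted p = 0.309). Vehicle replicate 3 lay within the LPC range. Acot2 is mitochondrial and Acot1 is a cytosolic neighbour on chromosome 12. They are close copies, with 24.5% of the 50-base windows of Acot2 found in Acot1 and 17.6% of those of Acot1 in Acot2. Acot2 stood at 11.8, 13.1 and 10.8 FPKM with LPC and at 12.9, 10.7 and 9.32 FPKM with vehicle, and Acot1 at 0.73, 0.96 and 1.11 FPKM with LPC and at 0.91, 0.31 and 0.71 FPKM with vehicle. Because the quantifier may share fragments between them, their sum was compared, and it was 12.8 ± 1.12 FPKM with LPC and 11.6 ± 1.99 FPKM with vehicle (SD, n = 3 each; exact permutation test, two-sided p = 0.40).

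Among the receptors, Ppard carried nearly all PPAR transcript. PPAR-delta, its product, is the widely expressed family member. Ppard stood at 18.5, 15.1 and 14.9 FPKM with LPC and at 20.0, 21.9 and 19.3 FPKM with vehicle. All 3 LPC libraries lay below the vehicle libraries, with means of 16.2 ± 2.00 FPKM with LPC and 20.4 ± 1.36 FPKM with vehicle (SD, n = 3 each), but the log2 change of -0.32 (95% interval -0.54 to -0.10) fell short of the threshold (limma adjusted p = 0.0521). It passed without LPC replicate 1 (adjusted p = 0.0354), once GC and length trends were removed (0.0161) and with the replicate number as a term in the fit (0.0110). Ppard passed in 4 of 15 alternatives. Its adjusted p was 0.0631 to 0.0917 under the other scalings, 0.178 with no filter and 0.219 without vehicle replicate 2. Pparg, best known as the regulator of fat cell formation, was listed at 0.73, 0.90 and 0.95 FPKM with LPC and at 0.56, 0.44 and 0.70 FPKM with vehicle. These levels stay under the filter and amount to about 29 to 38 fragments with LPC and 18 to 29 with vehicle, and in the fit without a filter the gene did not pass (log2 change 0.25, adjusted p = 0.189). Ppara, the receptor that governs fatty acid oxidation in liver, was listed at 0 to 0.01 FPKM with LPC and 0 to 0.03 FPKM with vehicle, at most 2 fragments.

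The PPAR targets divided into expressed and nearly silent genes. Fabp5, a fatty acid-binding protein that carries lipids in the cytosol and to PPAR-delta (chromosome 3, 10012585 to 10016610), had the largest change of the tested members when all 6 libraries were used. It stood at 43.64, 41 and 64.87 FPKM with LPC and at 33.0, 32.4 and 33.9 FPKM with vehicle. The groups did not overlap, and LPC replicate 3 lay far above the other LPC libraries. The means were 49.8 ± 13.1 FPKM with LPC and 33.1 ± 0.789 FPKM with vehicle (SD, n = 3 each), 1.51-fold, with a log2 change of 0.55 (SE 0.14, limma adjusted p = 0.0196). Without LPC replicate 3 the log2 change was 0.35, below the 0.43 of Cpt1a in that fit, and still passed (adjusted p = 0.0178), while the call was lost without vehicle replicate 1 (0.0635), after median centring (0.0505) and with no filter (0.205).

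Angptl4, which encodes a secreted inhibitor of lipoprotein lipase and is a standard PPAR target, stood at 6.11, 5.67 and 7.17 FPKM with LPC and at 4.87, 4.39 and 5.45 FPKM with vehicle. The 3 LPC libraries lay above the vehicle libraries, but the log2 change of 0.31 (95% interval 0.07 to 0.54) did not pass (limma adjusted p = 0.0776). It passed in 3 of 15 alternatives. These included the fit without LPC replicate 2 (adjusted p = 0.0441) and that with the replicate number as a term (0.0121). The limma adjusted p of Angptl4 was 0.302 without vehicle replicate 2, 0.221 with no filter and 0.217 with equal library sums. Pdk4, a kinase that turns pyruvate away from oxidation and a PPAR target in muscle, was listed at 0.02, 0.01 and 0.02 FPKM with LPC and at 0, 0 and 0.02 FPKM with vehicle. Cd36, a fatty acid uptake receptor, was listed at 0.10, 0.04 and 0.06 FPKM with LPC and at 0, 0.04 and 0.06 FPKM with vehicle. Both lie within a few fragments of 0, so a change of either was not detectable at this depth.

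**Figure D4:**
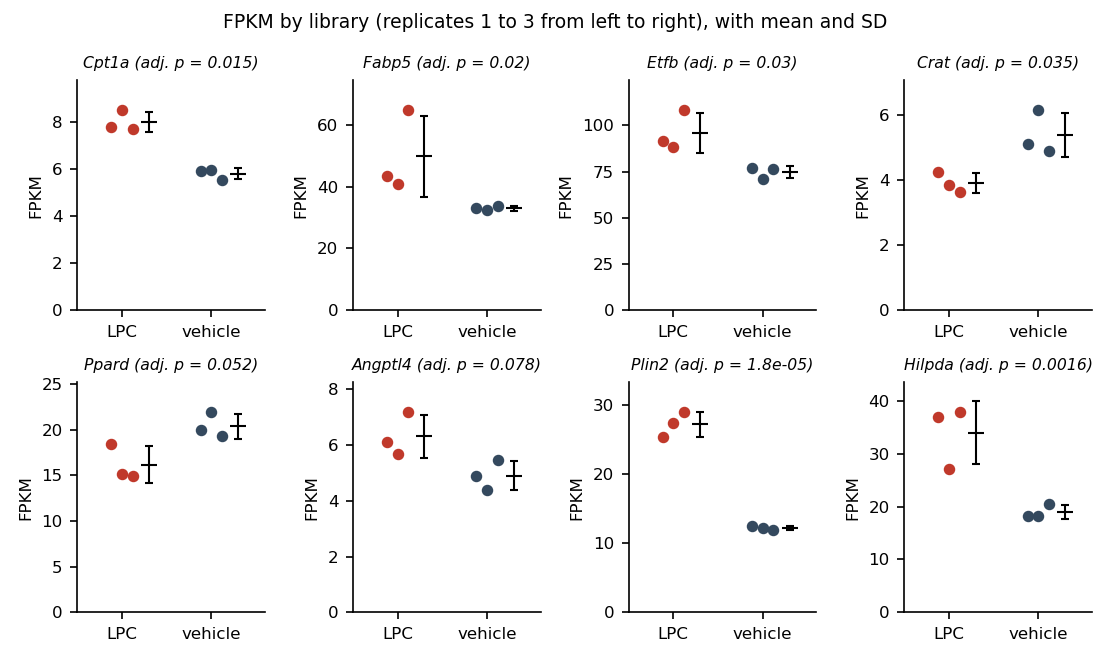
FPKM in each library of the 4 called members (top row), of Ppard and Angptl4, which did not pass, and of the PPAR targets Plin2 and Hilpda, with mean and SD (n = 3 each). For all 8 genes, picked in part for their results, the LPC and vehicle libraries do not overlap, which also holds for 34.5% of all tested genes. Fabp5 in LPC replicate 3 (64.9 FPKM) lies far above the other LPC libraries.

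A wider list of 95 measured genes of the same pathways, none of them members, gave 68 tested genes, of which 4 rose, 4 fell and 60 did not pass. Across all tested genes 5.82% were called higher and 7.91% lower, so this list too was called about as often as genes in general. The median log2 change was -0.08 for the 68 genes and -0.04 for all tested genes. The 2 clearest rises were PPAR targets that act at lipid droplets, but the PPAR targets of this list did not rise as a group. Of the 14 tested, 2 rose, Txnip fell and 11 did not pass. Their median log2 change was -0.13, and 5 (35.7%) had a positive change, against 41.7% of all tested genes. Of these 14, LPC lay above in 4 and below in 5, against 13.7% above and 20.7% below for all tested genes. The groups thus stood apart more often in this short list than in genes in general, in both directions. Plin2, the droplet coat protein gene, stood at 25.3, 27.4 and 28.9 FPKM with LPC and at 12.5, 12.1 and 11.9 FPKM with vehicle, a log2 change of 1.10 (SE 0.09, limma adjusted p = 1.8e-05). Hilpda, which encodes an inhibitor of triglyceride breakdown and also responds to hypoxia, stood at 36.9, 27.1 and 37.8 FPKM with LPC and at 18.2, 18.2 and 20.6 FPKM with vehicle (0.79, adjusted p = 0.0016). In both genes every LPC library lay well above every vehicle library.

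The other rises were Mcat (log2 change 0.43, limma adjusted p = 0.0353), which serves mitochondrial fatty acid synthesis, and Acat2 (0.39, adjusted p = 0.0247), a cytosolic thiolase that feeds sterol synthesis, so neither is an enzyme of beta-oxidation proper. The falls were Acot13 (-0.63, adjusted p = 0.0053), a mitochondrial thioesterase, Txnip (-0.36, adjusted p = 0.0331), an inhibitor of glucose uptake, Crot (-0.35, adjusted p = 0.0331), the peroxisomal carnitine octanoyltransferase, and the nuclear receptor coactivator gene Ncoa2 (-0.40, adjusted p = 0.044). Acot13 stood at 12.6, 14.6 and 18.0 FPKM with LPC and at 22.2, 22.8 and 25.7 FPKM with vehicle. Of these 6 genes, Acot13 kept its call in all 6 fits that left out a library, Acat2, Mcat, Txnip and Ncoa2 in 2 each, and Crot in 1. Those 5 were all lost when vehicle replicate 1 or 2 or the first LPC library was omitted (adjusted p of 0.0501 to 0.168). All but Acat2 were lost without LPC replicate 3 (0.0638 to 0.103), and Crot (0.119) and Acat2 (0.0599) without vehicle replicate 3. Equal library sums ended the calls of Crot (0.0566), Acat2 (0.103), Mcat (0.0732) and Ncoa2 (0.0523), median centring those of Mcat (0.0559), Txnip (0.0567) and Ncoa2 (0.0591), and quantile normalization that of Ncoa2 (0.0514). With no filter, Plin2 was the sole gene of the 8 to keep its call, and Acot13 had an adjusted p of 0.105 and Hilpda of 0.0791.

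Several central partners did not pass in the fit reported. Slc22a5, the carnitine importer of the plasma membrane, had a log2 change of -0.26 (limma adjusted p = 0.119), and its LPC libraries lay below the vehicle libraries. With the replicate number as a term in the fit it passed (0.0499). It passed in 2 of 14 alternatives, and its adjusted p was at most 0.392, without vehicle replicate 1. Rxra, a partner receptor of PPARs, had -0.27 (adjusted p = 0.0774), also with no overlap. It passed once GC and length trends were removed (0.0133) and with the replicate number as a term (0.0247). It passed in 3 of 15 alternatives, and its adjusted p was at most 0.240, without vehicle replicate 2. Ucp2, an abundant mitochondrial carrier, stood at 378, 296 and 313 FPKM with LPC and at 264, 275 and 269 FPKM with vehicle (0.28, adjusted p = 0.0875). It passed in 4 of 15 alternatives, among them with those trends removed (0.0363) and without LPC replicate 2 (0.0368). The highest adjusted p of Ucp2 over the 15 was 0.256. The coactivator gene Ppargc1a was listed at no more than 0.03 FPKM with LPC and 0.06 FPKM with vehicle, Cpt1b at 0.16 to 0.18 FPKM with LPC and 0.14 to 0.25 FPKM with vehicle, and Ppargc1b at 0.63 to 0.89 FPKM with LPC and 0.81 to 0.90 FPKM with vehicle.

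**Figure D5:**
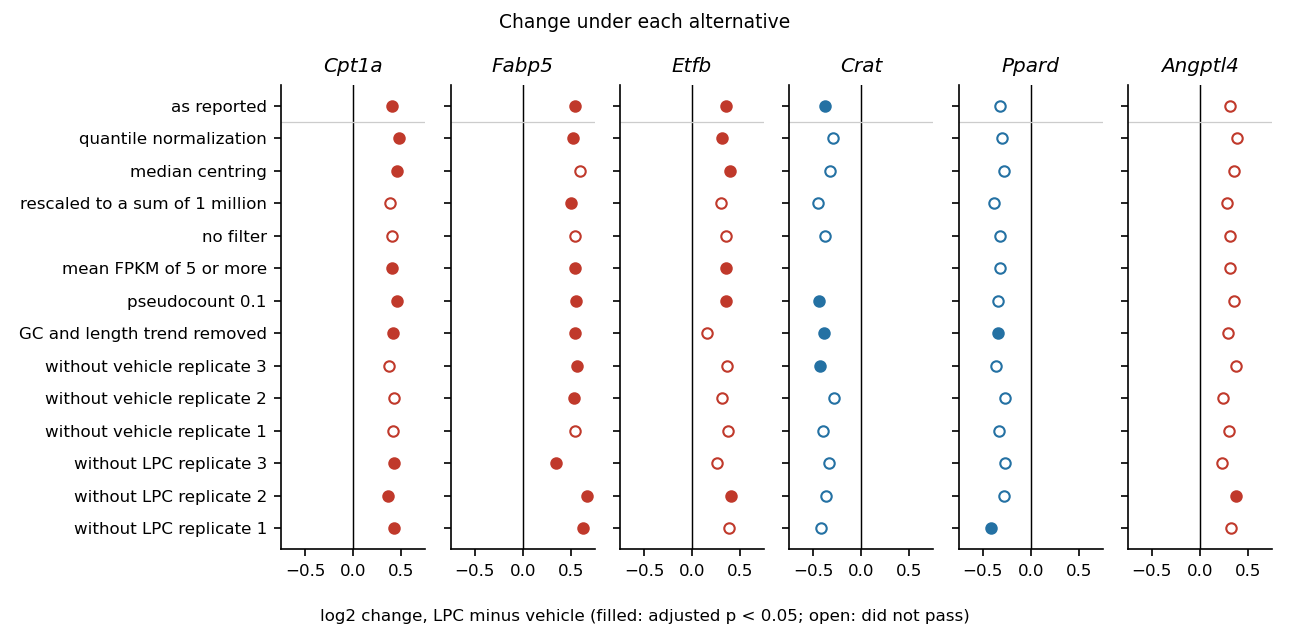
Log2 change (LPC minus vehicle) of the 4 called members and of Ppard and Angptl4 as reported and under each other scaling, filter, pseudocount and omitted library. Filled points have a limma adjusted p under 0.05 and open points do not. Fits with the replicate number as a term are not drawn. All points keep their sign, the Etfb point moves to 0.16 after removal of GC and length trends, and Crat has no point under the filter at a mean of 5 FPKM.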

How the data were processed

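RNA of 6 libraries (LPC and vehicle, n = 3 each, grouped by the agent in the labels) was read on the BGISEQ-500 platform. Per the labels' protocols, the authors mapped reads to GRCm38 by Bowtie2 and estimated FPKM by RSEM, with no versions named. The deposited FPKM have 2 decimals. For 24 symbols that had become dates, the symbol was looked up again by gene identifier. The members, lists and tests were chosen with earlier results of these data known. Members were named whatever their result. Of the other pathway genes, called ones and a preset few were named, and some of these are not reported here.

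limma 3.58.1 (R 4.3.3, trend, group as the single term) was run on log2(FPKM + 1) of 10138 genes with 1 FPKM or more in at least 3 libraries, with Benjamini-Hochberg adjustment. Values are not counts, so no count test was used. On data simulated from these 10138 genes for LPC against vehicle, it recovered 65% of 100 genes changed 1.5-fold and 93% of 100 changed 2-fold, with 7 false among 165 calls. The simulated noise was normal and independent between genes and libraries, and the changes were added on the log2(FPKM + 1) scale. No library shift and no GC or length trend was simulated, so these rates need not hold for the real libraries. Ratios and the Acot sum used exact permutation tests (scipy 1.17.1). Shared sequence was counted in 50-base windows of the longest GENCODE vM21 transcript, which also gave GC share and length. Alternatives were 3 scalings, 2 filters, a pseudocount of 0.1, removal of GC and length trends (splines, 4 degrees of freedom each), the replicate number as a term, and leaving out each library.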

Additional observations from a re-analysis of the deposited data

How the results depend on the processing

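Of 507 fits of single tested members under alternatives, 437 kept direction and side of the threshold, 26 lost a call, 7 gained one and 37 changed sign, none of the last in a called gene. Most of these fits had no call to lose, and the 26 losses all fell on the 4 called members. Fabp5 kept its call in 12 of 15 alternatives, Cpt1a in 10 of 15, Etfb in 6 of 15 and Crat in 5 of 14. Members called higher, 3 as reported, numbered 1 with equal library sums, 0 with no filter and 0 to 4 over the fits without 1 library. Members called lower, 1 as reported, numbered 0 with quantile normalization, median centring, equal sums, no filter or a mean of 5 FPKM, 2 with GC and length trends removed, and 0 to 1 without 1 library. All genes gave 590 higher and 802 lower, against 313 higher with equal sums, 108 and 83 with no filter, 1217 lower with GC and length trends removed, and 225 to 809 higher and 288 to 1217 lower without 1 library. The other pathway genes, 4 higher and 4 lower, gave 2 and 2 with equal sums, 1 and 0 with no filter, 2 lower with median centring, 11 lower with trends removed, and 2 to 7 higher and 1 to 6 lower without 1 library. The cause was not tested.

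The replicate number as a block gave 1180 genes higher and 1661 lower, 4 and 2 members and 7 and 14 other pathway genes; with trends also removed it gave 1110 and 1661 genes, 3 and 2 members and 6 and 13 other pathway genes. The labels do not say that the numbers pair libraries. Deviations from the group means correlated at 0.02, 0.56 and 0.41 for numbers 1 to 3. Among unmatched numbers, LPC replicate 2 had -0.45 with vehicle replicate 3, and LPC replicate 3 had -0.50 with vehicle replicate 2. The other unmatched values ran from -0.088 to 0.065, the highest for LPC replicate 3 with vehicle replicate 1. Matched numbers thus correlated best for 2 and 3, while vehicle replicate 1 correlated weakly with every LPC library. The block was not used because the labels state no pairing, and pairing itself was not tested.

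Signs changed as follows, all without a call. With equal sums the log2 change was -0.022 for Cpt2, -0.016 for Slc25a20, -0.037 for Acad8, -0.044 for Eci2, -0.021 for Ech1 and -0.036 for Acaa1a. With trends removed, with or without the block, it was -0.021 for Cpt2, -0.089 for Ech1 and -0.023 for Acaa1a. With median centring it was 0.0086 for Eci1 and 0.032 for Hsd17b4, and with quantile normalization -0.0025 for Eci2, -0.0026 for Ech1 and 0.019 for Hsd17b4. Without 1 library the ranges were -0.022 to 0.089 for Cpt2, -0.028 to 0.080 for Slc25a20, -0.0066 to 0.033 for Acad8, -0.21 to 0.079 for Eci1, -0.074 to 0.12 for Eci2, -0.077 to 0.091 for Ech1, -0.083 to 0.16 for Acaa1a, -0.0054 to 0.10 for Acox3 and -0.055 to 0.019 for Hsd17b4. The log2 difference of the Hadha to Hadhb ratio, 0.021 as reported, ran from -0.046 to 0.092.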

Other observations

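By the longest annotated transcript of each gene, the members for which LPC replicate 3 was highest were shorter than those for which it was lowest. It was the highest of all 6 libraries for 7 tested members, whose longest transcripts had a median of 1516 bases, and the lowest of all 6 for 10 members, with a median of 3858 bases. Within the LPC group alone the contrast was smaller, with a median of 2874 bases for the 11 members where it was highest and of 3930 bases for the 13 where it was lowest. Short members such as Etfb, Ech1 and Eci1 were at their highest in this library, and Hadha, Acad11 and Acox3 at their lowest. Ech1 stood at 72.2, 72.3 and 90.7 FPKM with LPC and at 75.7, 70.7 and 82.9 FPKM with vehicle. What sets this order was not tested.

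The variation between replicates was also wider with LPC. The median coefficient of variation of the tested members was 8.82% over the LPC libraries and 5.98% over the vehicle libraries, beside 10.6% with LPC and 6.48% with vehicle for all tested genes.

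Ppard and Pparg lay on opposite sides of their vehicle levels, so the ratio of Ppard to Pparg was 25.3, 16.8 and 15.7 with LPC and 35.7, 49.8 and 27.5 with vehicle. The groups did not overlap, but Pparg rests on about 18 to 38 fragments per library, the ratio was picked after the values were seen, and no test was made.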
